A study of Mus musculus with 9 samples.

Results

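Transcripts of 7 genes that organise chromosomes into loops and hold sister chromatids together were followed in sorted mouse spermatogonia: Ctcf, its testis paralogue Ctcfl, and the cohesin genes Smc3, Rad21, Stag1, Nipbl and Wapal. They were found by symbol among 23813 entries of the deposited expression table, 1 entry each, and all 7 were among the 11142 genes that passed the minimum for testing (at least 1 FPKM in at least 3 libraries). The genes were chosen by their symbols with their FPKM in these same groups already known, so their values and differences are given below as a description. The calls that the fit over all genes makes on them are counted once, beside the share of all genes called, and nothing is read from those counts.

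All cells came from testes of Id4-eGfp transgenic mice (strain LT-11B6, C57BL/6 background) at postnatal day 6 and were sorted for EGFP, so every group consists of ID4-EGFP+ cells, the undifferentiated spermatogonia that hold the stem cells of the testis. Unfractionated cells (all ID4-EGFP+) gave 3 libraries, with 3 more from the top 1/3 by staining for the surface tetraspanin TSPAN8 (TSPAN8-high) and 3 from the weakly stained bottom 1/3 (TSPAN8-low). The label is a reporter read-out and an antibody gate, not a genotype, and how many pups went into a preparation is not known here. RNA was measured as FPKM, the fragments assigned to a gene per length of its transcripts and per library total, which allows levels of different genes to be set side by side.

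Tspan8 and Id4 transcripts followed the gates, with more of each in TSPAN8-high (limma on log2(FPKM + 1), difference from TSPAN8-low 1.72 for Tspan8 with Benjamini-Hochberg adjusted p = 0.00246, and 1.37 for Id4 with adjusted p = 0.00567). The summed level of 6 germ cell markers, Tspan8 and Id4 among them, was 1620 to 2390 FPKM across the 9 libraries. Most of it was Dazl (1148 to 1849 FPKM), which overlapped between the fractions. Ddx4, Gfra1 and Zbtb16 were higher in TSPAN8-high without overlap (1.46, 2.69 and 1.59 times the level of TSPAN8-low). Of all tested genes 25.6% did not overlap, in either direction. The sum alone does not show how alike the fractions are in germ cell markers. The absolute depth is unknown. Depth relative to the first all ID4-EGFP+ library was estimated from the ratios of low FPKM values. It was 1.02 to 1.05 in TSPAN8-high, 0.856 to 0.946 in TSPAN8-low and 0.909 to 1.04 in all ID4-EGFP+. The fractions did not overlap in depth, and its part in the differences below was not tested. Sertoli cell transcripts, from the somatic cells that surround spermatogonia, were present in unequal amounts. The 10 of 11 listed markers that the table holds summed to 62.1 to 166 FPKM in TSPAN8-high, 9.86 to 95.5 in TSPAN8-low and 12.3 to 80.4 in all ID4-EGFP+, while Sox9, Amh, Wt1 and Gata4 stayed under 1 FPKM in every library. Their part in the differences below was not tested. In bulk RNA, fewer cells that express a gene and less RNA of it per cell cannot be told apart.

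CTCF is a zinc finger protein present in most cells that binds DNA and halts cohesin there, which sets the bases of chromatin loops. CTCFL, also called BORIS, has a similar zinc finger region with different ends and is normally made in male germ cells, where it can bind a subset of the same sites. Cohesin is a ring of SMC1, SMC3 and a kleisin (RAD21 in mitotic cells, REC8 or RAD21L in meiotic cells) with a STAG subunit. NIPBL loads it and drives loop extrusion, and WAPL, encoded by the gene listed as Wapal, releases it from DNA.

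Ctcf was nearly level across the 9 libraries. It stood at 9.44, 9.82 and 9.06 FPKM in all ID4-EGFP+, at 9.48, 10.7 and 9.95 in TSPAN8-high and at 11.1, 9.76 and 9.01 in TSPAN8-low. The 3 groups overlapped throughout, with means of 9.44 ± 0.382, 10.1 ± 0.633 and 9.96 ± 1.06 FPKM (SD, n = 3 each). Its coefficient of variation over the 9 libraries was 7.19%, at percentile 1.36 of all tested genes. The difference between the fractions was 0.02 on the log2(FPKM + 1) scale (SE 0.14), and 2 SE on either side reached from -0.26 to 0.29. Against all ID4-EGFP+ the differences were 0.08 for TSPAN8-high and 0.07 for TSPAN8-low.

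Ctcfl was lower in TSPAN8-high than in either other group. It stood at 32.1, 27.6 and 41.6 FPKM in all ID4-EGFP+, at 8.42, 10.6 and 15.5 in TSPAN8-high, and at 22.6, 38.4 and 35.2 in TSPAN8-low. Every TSPAN8-high library lay below every other library, while all ID4-EGFP+ and TSPAN8-low overlapped. The group means were 33.7 ± 7.14, 11.5 ± 3.65 and 32.1 ± 8.36 FPKM (SD, n = 3 each), so that TSPAN8-high had 0.359 of the level of TSPAN8-low and 0.341 of that of all ID4-EGFP+. Within replicate numbers 1, 2 and 3 the first ratio was 0.372, 0.275 and 0.442. On the log2(FPKM + 1) scale Ctcfl differed by -1.41 between the fractions (SE 0.25, or 0.16 with the replicate number as a block), which placed it 24th of 11142 tested genes counted from the most lower. The difference was -1.49 for TSPAN8-high against all ID4-EGFP+ and -0.09 for TSPAN8-low against all ID4-EGFP+ (SE 0.25 for both), comparisons that share the all ID4-EGFP+ libraries. Its coefficient of variation over the 9 libraries, 47.3%, lay at percentile 96.4.

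**Figure D1:**
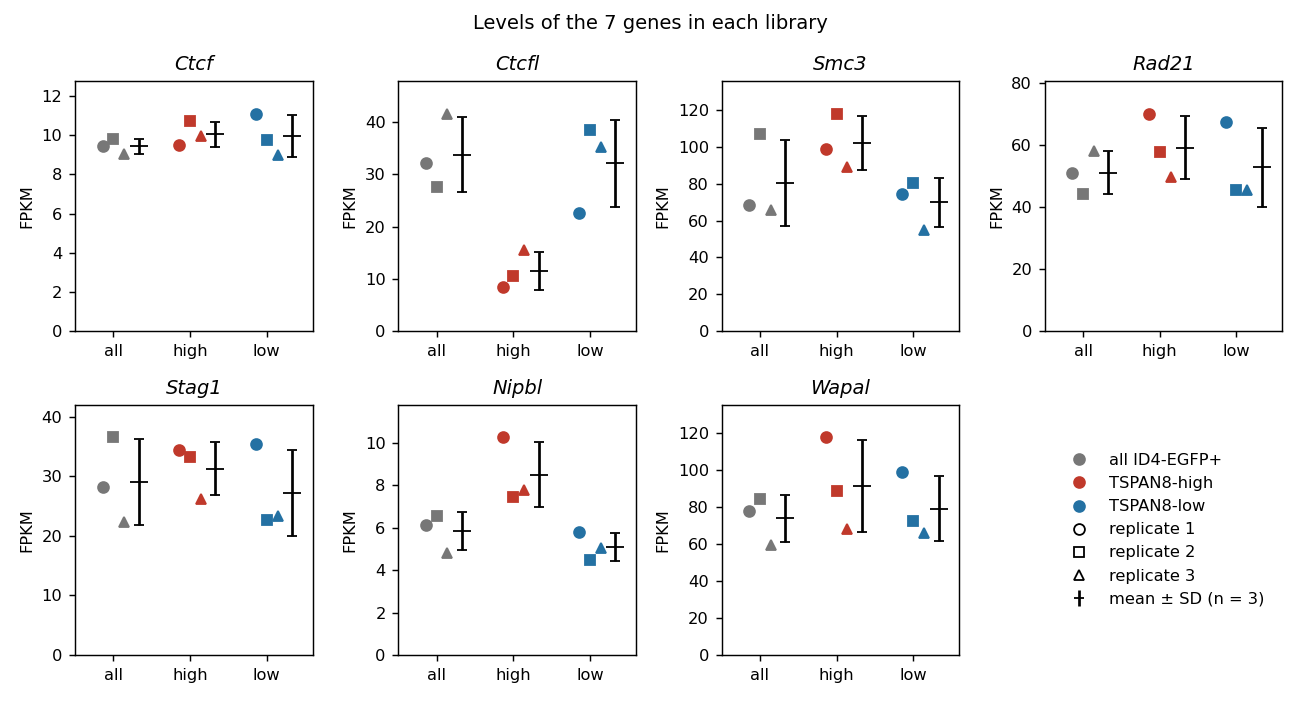
FPKM of each of the 7 genes (linear axes from 0) in all ID4-EGFP+, TSPAN8-high and TSPAN8-low libraries, with symbols for the replicate numbers and a bar for mean ± SD of 3 libraries. The 3 TSPAN8-high values of Ctcfl, 8.42 to 15.5 FPKM, lie below the other 6, those of Nipbl lie above the other 6, and Ctcf stays between 9.01 and 11.1 FPKM.

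The balance of the paralogues followed from this. As FPKM, Ctcfl was at 3.60 ± 0.907 times the level of Ctcf in all ID4-EGFP+ (range 2.81 to 4.59), at 3.29 ± 1.09 times in TSPAN8-low (2.04 to 3.94) and at 1.14 ± 0.364 times in TSPAN8-high (0.888 to 1.56). In 2 of the 3 TSPAN8-high libraries Ctcf therefore had the higher FPKM of the pair, which occurred in no library of the other groups. Part of the Ctcfl transcript sequence is shared with many genes, as given below, and that of Ctcf is not. The part of such sequence in the ratio was not tested.

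The genes whose levels most resembled those of Ctcfl over the 9 libraries were Nmrk1, Gmeb1, Tmem206, Dph5 and Loxl2, with Pearson's r of 0.997, 0.996, 0.996, 0.995 and 0.994 on the log2(FPKM + 1) scale. Nmrk1, for a nicotinamide riboside kinase, was at 123 ± 13.1 FPKM in all ID4-EGFP+, 54.7 ± 13.0 in TSPAN8-high and 116 ± 23.5 in TSPAN8-low (SD, n = 3 each). Loxl2, for a lysyl oxidase of the extracellular matrix, was at 89.2 ± 11.3, 41.0 ± 12 and 89.4 ± 23.0 FPKM in the same order. After the group means were removed, these 5 genes had r of 0.978 to 0.992 with Ctcfl. They were picked by r over the same libraries, so high values here follow largely from that pick. In total 49 tested genes had r of at least 0.98 with Ctcfl. The closest genes to Ctcf were Snx4 (0.967), Mll5 (0.900), Serinc1 (0.896), 4933416C03Rik (0.896) and Brd7 (0.895), and 0 genes reached 0.98.

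**Figure D2:**
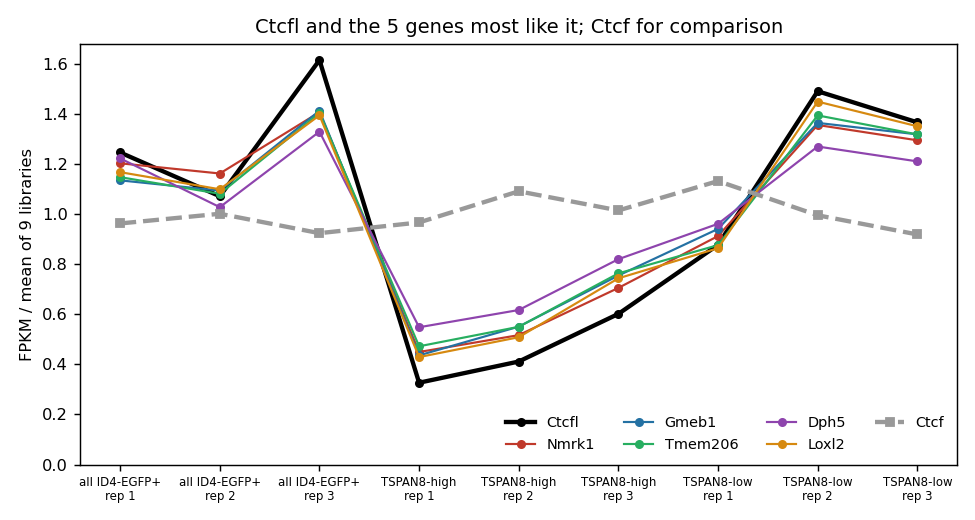
FPKM of Ctcfl (black), its 5 most alike genes (thin lines) and Ctcf (dashed), each divided by its own mean over the 9 libraries, by library (linear axis). The 6 solid lines rise and fall together from library to library, also within a group, with the 3 TSPAN8-high libraries below 1 for all 6.

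A feature of sequence shared by Ctcfl and most of these genes bears on how firmly the Ctcfl level can be read. Annotated Ctcfl transcripts (GENCODE M21, GRCm38) hold 73 different runs of 25 bases that also occur, on either strand, in transcripts of at least 500 genes. In the longer transcript, of 3217 bases, they lie between bases 2494 and 2653, beyond the last coding base at 2159 and so in the 3′ untranslated part. The most widely shared run, at bases 2560 to 2584 (chr2:173094242-173094266, minus strand), occurs in transcripts of 1223 of 55341 annotated genes. It is shown because a read confined to it cannot be assigned to a gene by its sequence alone, and all its bases are in capitals for that reason.
Ctcfl repeated run: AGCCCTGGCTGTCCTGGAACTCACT
Among the other 6 genes, Stag1 had 3 such runs and Ctcf, Smc3, Rad21, Nipbl and Wapal had 0.

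Of 11042 other tested genes that matched the annotation, 30.7% had a run of this kind. The share was 27.5% to 33.9% in each range of r to Ctcfl below 0.9, 55.8% of the 113 genes with r from 0.9 to 0.98, and 85.7% (42 of 49) of those with r of at least 0.98. With runs shared by at least 200 genes the shares were 37.4% over all and again 85.7% in the top range. Nmrk1, Gmeb1, Dph5 and Loxl2 had 25, 35, 32 and 22 such runs and Tmem206 had 0. Genes best known from other cell types were in that range too. Those given here were picked by hand, and the share of such genes, there or over all genes, was not counted. Named after their values were seen, Tyr (tyrosinase of pigment cells, 22 runs) was at 23.0 ± 2.71, 10.4 ± 3.23 and 22.2 ± 4.46 FPKM in all ID4-EGFP+, TSPAN8-high and TSPAN8-low, Cxcr2 (a chemokine receptor of neutrophils, 21 runs) had means of 65.0, 28.5 and 61.8, and Klhl41 (a muscle gene, 30 runs) 13.6, 5.31 and 12. Of tested genes that hold such a run, 2.65% were called lower and 2.86% higher between the fractions. Of those without, the shares were 1.91% and 3.62%, and the median difference was 0.05 in both sets. The share called lower was larger with a run and the share called higher smaller. Whether the sets differ was not tested. Nothing in the labels or files tells how reads matching many places were assigned, and their part in the Ctcfl difference was not tested.

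**Figure D3:**
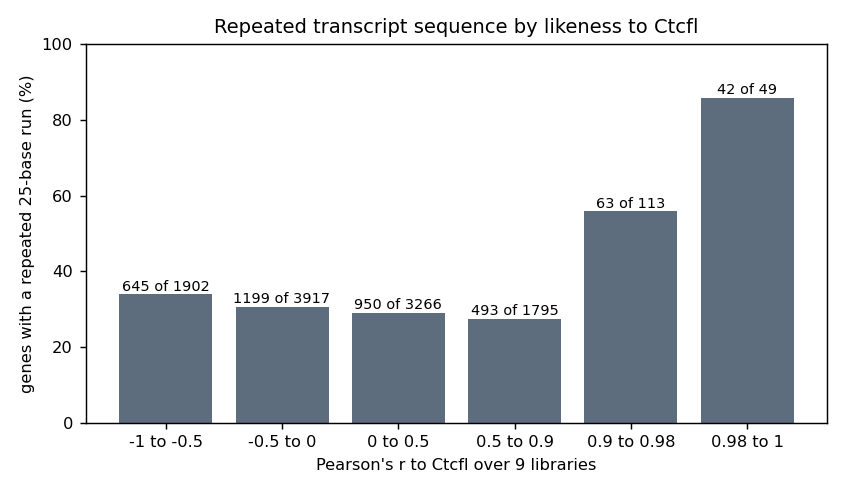
Percentage of tested genes whose annotated transcripts hold a 25-base run found in at least 500 genes, by range of Pearson's r to Ctcfl over the 9 libraries (bars from 0, counts above). The bars stand between 27.5% and 33.9% below r of 0.9, at 55.8% from 0.9 to 0.98 and at 85.7% above.

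Among the core subunits, Smc3, whose protein is acetylated when cohesion is set up, had more transcript in the strongly stained fraction. It stood at 99.0, 118 and 89.1 FPKM in TSPAN8-high, while TSPAN8-low had 74.2, 80.5 and 54.7 and all ID4-EGFP+ had 68.3, 107 and 65.6. The fractions did not overlap, and all ID4-EGFP+ overlapped both. The means were 102.0 ± 14.6, 69.8 ± 13.5 and 80.3 ± 23.2 FPKM, and TSPAN8-high had 1.46 times the level of TSPAN8-low (1.33, 1.46 and 1.63 within replicates 1, 2 and 3). The log2 difference between the fractions was 0.55 (SE 0.21, or 0.12 with the replicate block).

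Rad21 encodes the kleisin that separase cuts at anaphase. It stood at 70.1, 57.7 and 49.7 FPKM in TSPAN8-high, while TSPAN8-low had 67.5, 45.4 and 45.5 and all ID4-EGFP+ had 51.0, 44.2 and 58.0. The 3 groups overlapped, and replicate 1 was the highest library of each TSPAN8 fraction. The fractions differed by 0.17 (SE 0.19), with 2 SE reaching from -0.21 to 0.56.

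Stag1, for the cohesin subunit that acts at telomeres and at CTCF sites, behaved in the same way. It stood at 34.5, 33.3 and 26.2 FPKM in TSPAN8-high, while TSPAN8-low had 35.5, 22.7 and 23.3 and all ID4-EGFP+ had 28.3, 36.6 and 22.3. All groups overlapped, and the fractions differed by 0.22 (SE 0.22), with 2 SE reaching from -0.21 to 0.65.

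Nipbl, for the cohesin loader, had its highest values in TSPAN8-high. It stood at 10.3, 7.44 and 7.80 FPKM in TSPAN8-high, while TSPAN8-low had 5.79, 4.46 and 5.05 and all ID4-EGFP+ had 6.12, 6.53 and 4.82. The lowest TSPAN8-high library exceeded the highest of the other 6. With means of 8.50 ± 1.54, 5.10 ± 0.664 and 5.82 ± 0.895 FPKM, TSPAN8-high had 1.67 times the level of TSPAN8-low (1.77, 1.67 and 1.54 within replicates) and 1.46 times that of all ID4-EGFP+. The log2 differences were 0.63 and 0.47 (SE 0.17 for both). By mean FPKM Nipbl was the least abundant of the 7 genes in each group.

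Wapal, for the release factor, stood at 118, 89.0 and 68.2 FPKM in TSPAN8-high, while TSPAN8-low had 99.1, 72.5 and 66.1 and all ID4-EGFP+ had 78.2, 84.4 and 59.8. The groups overlapped, and replicate 1 was again the highest library of each fraction. The fractions differed by 0.20 (SE 0.22), with 2 SE reaching from -0.25 to 0.64. The ratio of release factor to loader transcript, Wapal over Nipbl, was 10.7 ± 1.73 in TSPAN8-high (8.75 to 12), 12.7 ± 0.260 in all ID4-EGFP+ (12.4 to 12.9) and 15.5 ± 2.12 in TSPAN8-low (13.1 to 17.1). No pair of groups overlapped, by narrow gaps. Several ratios of gene pairs were formed, and the share of all gene pairs that separate in this way was not counted. The ratio also carries the Nipbl difference given above.

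**Figure D4:**
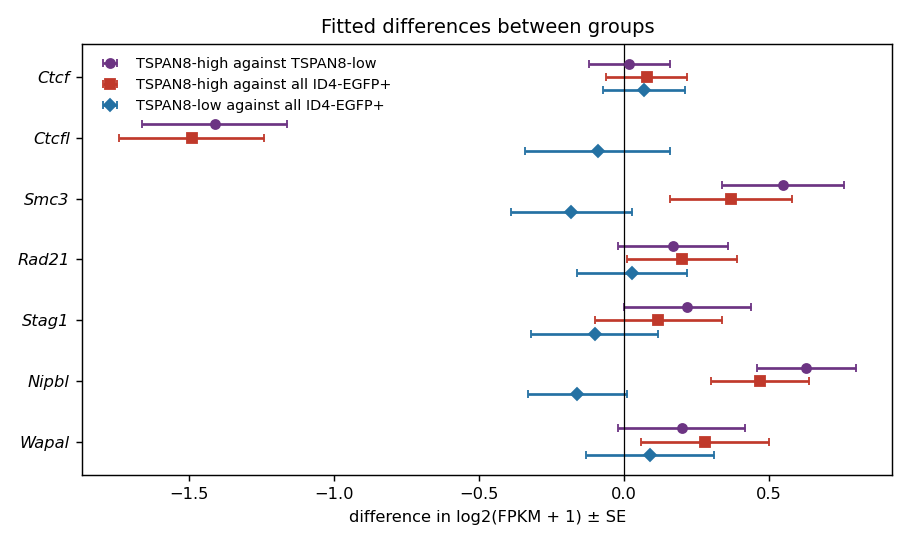
Fitted difference between groups in log2(FPKM + 1) for each of the 7 genes, with bars of 1 SE and a line at 0 (linear axis). Ctcfl lies at -1.41 and -1.49 in both comparisons of TSPAN8-high and near 0 in the comparison of TSPAN8-low with all ID4-EGFP+, while Nipbl (0.63) and Smc3 (0.55) lie furthest to the right between the fractions.

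In the order of levels, Smc3, Wapal and Rad21 were the 3 most abundant of the genes in each group. Smc3 and Wapal, the top pair, overlapped in all groups, and so did Wapal and Rad21 in TSPAN8-high and TSPAN8-low. Ctcfl and Stag1, next in order, overlapped in all ID4-EGFP+ and TSPAN8-low, whereas in TSPAN8-high Ctcfl lay below Stag1 and overlapped Ctcf. By mean level among tested genes Ctcfl was at percentile 72.3 in all ID4-EGFP+, 52.1 in TSPAN8-high and 72.0 in TSPAN8-low, and Ctcf at 47.9, 49.2 and 50.2.

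Between the fractions limma called 2 of the 7 genes at an adjusted p under 0.05, Ctcfl lower and Nipbl higher, where 5.56% of all tested genes were called (3.41% higher and 2.15% lower). With the replicate number as a block it called 3, Smc3 being added, where 19.1% of all tested genes were called. The 3 values per fraction did not overlap for 3 genes, against 25.6% of all tested genes. For TSPAN8-high against all ID4-EGFP+ it called Ctcfl alone, as lower, where 0.144% of all tested genes were called (0.117% lower, 3.09% in either direction with the block), and Ctcfl and Nipbl did not overlap (15.1% of all). For TSPAN8-low against all ID4-EGFP+ limma called 0 of the 7, and 0.0% of all tested genes, of which 910 had p under 0.05 before adjustment. With the block it called 5 genes (0.0449%), none of them among the 7, and no value set of the 7 was free of overlap (14.3% of all tested genes were). These counts follow from how the genes were chosen, and nothing is read from them. The median difference between the fractions was 0.20 over the 7 genes and 0.05 over all tested genes. The share of higher among all calls depended on scaling: it was 61.4%, and 42.1% with the authors' normalized values, 41.5% with a common median and 45.5% after quantile normalization.

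Promoter sequences were on hand for Ctcf, Smc3, Stag1 and Wapal, as 300 bases from 250 before the start of transcription (RefSeq, GRCm38.p6). The longest run of bases that at least 3 of these promoters share, on either strand, is CCGCCATTTT in Ctcf, Smc3 and Stag1, 10 bases long. It holds the CCAT core of the sequence bound by YY1, a zinc finger protein reported to join loops between promoters and enhancers. The 3 sites are shown to let the positions be compared, in windows of 40 bases read on the gene's strand, with the run or its complement in capitals.
Ctcf (chr8:105636531-105636570, plus strand): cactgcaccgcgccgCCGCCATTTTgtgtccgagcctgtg
Smc3 (chr19:53600379-53600418, plus strand): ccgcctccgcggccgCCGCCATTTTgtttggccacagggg
Stag1 (chr9:100643231-100643270, plus strand): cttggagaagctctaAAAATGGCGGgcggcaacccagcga
The run begins 8 bases after the annotated start in Ctcf, at position -2 in Smc3 and, on the opposite strand, at -202 in Stag1. It occurs in 0.222% of 32851 promoters of the same length. Among the 3128 promoters with at least 32 CG pairs, the number in the Smc3 promoter, the share is 0.735%. Binding by YY1 was not tested. The search asked for a run that at least 3 of the promoters share, so some such run had to appear. The shares are therefore no test of the run. The Wapal promoter does not hold it, and those that do include a gene that was nearly level across the groups (Ctcf) and one without overlap between the fractions (Smc3). Yy1, named after the run was seen, differed by -0.36 between the fractions (SE 0.19, limma adjusted p = 0.312).

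The rest of the pathway was read from 8 lists, 65 of whose genes could be tested. By limma 2 of them passed between the fractions, both lower in TSPAN8-high, where 5.56% of all tested genes were called. Before adjustment 14 (21.5%) had a p under 0.05, near the 22% of all tested genes. The replicate block brought the number that passed to 16 (24.6%), 14 higher and 2 lower, against 19.1% of all tested genes. Of the 65 estimates 75.4% lay above 0, as did 56.6% of those of all tested genes, whose median was 0.05, and the counts of each list below are to be read beside these shares. Same-numbered libraries had more Sertoli marker RNA in TSPAN8-high than in TSPAN8-low, and its part in these counts was not tested.

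Of 15 further genes of mitotic cohesin and its regulators 0 passed (1 had p under 0.05 before adjustment, and 1 passed with the block), and their median difference was 0.08, or -0.01 with a common median. Smc1a, the partner of Smc3 in the ring, stood at 10.1, 15.9 and 14 FPKM in TSPAN8-high against 7.15, 8.76 and 7.42 in TSPAN8-low. These values did not overlap, and the difference of 0.69 (SE 0.21) had an adjusted p of 0.0825 in limma, or 0.00502 with the block. Without all ID4-EGFP+ replicate 2 or TSPAN8-high replicate 1 it passed (adjusted p = 0.048 and 0.0453). Stag2, the alternative to Stag1, had 0.44 (adjusted p = 0.383). Hdac8, for the deacetylase of SMC3, had 0.39 (0.27), and Chtf18, for a clamp loader subunit that acts when cohesion is set up, had 0.36 (0.435). Without TSPAN8-high replicate 1 Chtf18 was at 0.72 and passed (adjusted p = 0.04). Mau2, the partner of Nipbl in the loader, had 0.08 (SE 0.19, adjusted p = 0.851, and -0.01 with a common median), and the ratio of Nipbl to Mau2 was 1.00 ± 0.130 in TSPAN8-high, 0.645 ± 0.110 in TSPAN8-low and 0.623 ± 0.145 in all ID4-EGFP+.

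Of the 5 meiotic cohesin genes 0 passed (1 had p under 0.05 before adjustment), and with the block Rec8 and Sgol2 passed. All 5 estimates lay above 0, with a median of 0.46, or 4 of 5 (0.36) after scaling to a common median. Rec8, for the meiotic kleisin, had 0.52 (adjusted p = 0.229, or 0.0361 with the block) and Sgol2, for a protector of centromeric cohesin, 0.46 (0.227, or 0.0268). Stag3 had 0.37 (0.238) and Rad21l 0.46 (0.432). Per transcript length Rad21 exceeded Rec8 in every library, by 10.5 to 73.7 times, whereas the meiotic Smc1b exceeded Smc1a, by 5.85 to 20.5 times. Smc3, which pairs with either SMC1 protein, was at 6.18 to 10.4 times the level of Smc1a.

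Condensin, the related complex that compacts mitotic chromosomes, had 8 of 8 estimates above 0 and a median of 0.36, or 6 of 8 with a common median (0.26) or quantile normalization (0.32). Of these genes 0 passed, 4 of 8 (against 22% of all tested genes) had p under 0.05 before adjustment and 4 (against 19.1%) passed with the block. The last were Ncaph (0.59, adjusted p = 0.0777, or 0.0075 with the block), Ncapg (0.56, 0.197 or 0.0297), Ncapd2 (0.44, 0.15 or 0.0305) and Ncapd3 (0.43, 0.101 or 0.031). Ncaph also passed without TSPAN8-high replicate 1 (adjusted p = 0.021) or replicate 1 of all groups (0.043). Of 6 tested genes of the SMC5/6 complex, which acts in DNA repair, 0 passed with or without the block, and 0 had p under 0.05 even before adjustment. Nsmce4a had -0.19 (adjusted p = 0.428), Smc5 0.21 (0.586), Smc6 0.20 (0.603) and Nsmce1 0.13 (0.685), and Eid3 was under the minimum for testing.

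Among 18 partners of CTCF or CTCFL and other loop factors 0 passed (3 had p under 0.05 before adjustment), and 3 were higher with the block. Parp1, for an enzyme that attaches poly(ADP-ribose) to CTCF among other proteins, had 0.62 (adjusted p = 0.0927, or 0.00518 with the block), and passed without TSPAN8-high replicate 1 (0.0274) or replicate 1 of all groups (0.0446). Ubtf, for a factor of ribosomal RNA genes, had 0.45 (0.116, or 0.018 with the block), Maz -0.34 (0.173) and Ldb1 0.33 (0.299). Prmt7, an arginine methyltransferase gene named here because it is the third of the block calls, had 0.46 (0.388, or 0.0496 with the block).

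Both tested genes of the list reported lower in mouse testis without CTCFL were lower in TSPAN8-high. The list was chosen with earlier results of these data known, and a link of its genes to the Ctcfl level was not tested. Stra8, which germ cells switch on in response to retinoic acid, stood at 84.3, 81.9 and 107 FPKM in TSPAN8-high. TSPAN8-low had 202, 186 and 174 FPKM and all ID4-EGFP+ had 159, 154 and 144, so that no group overlapped another. Stra8 differed by -1.04 between the fractions (SE 0.15, limma adjusted p = 0.00382). Prss50, for a testis protease, had TSPAN8-high values of 1.67, 1.02 and 1.29 FPKM and TSPAN8-low values of 2.72, 3.47 and 3.24, and its 3 values in all ID4-EGFP+ were 2.29, 1.87 and 1.48. The fractions did not overlap, and the difference was -0.84 (SE 0.16, limma adjusted p = 0.0138). Prss50 no longer passed when TSPAN8-high replicate 2 (adjusted p = 0.0694) or TSPAN8-low replicate 2 (0.0512) was left out, nor without replicate 3 of all groups (0.113). Both calls were lost without replicate 2 of all groups (0.222 for Prss50, 0.105 for Stra8). Gal3st1, for a sulfotransferase of germ cell glycolipids, was under the minimum for testing, with TSPAN8-high values of 0.230, 0.280 and 0.172 FPKM and TSPAN8-low values of 0.751, 0.646 and 0.614. The fractions did not overlap, as was so for 25.6% of tested genes in either direction. In all ID4-EGFP+ Gal3st1 had 0.641, 0.342 and 0.141 FPKM, which overlapped both fractions. All its values lie under 1 FPKM, and the share of such low genes that separate was not counted. The annotated transcripts of Stra8 and Prss50 hold 0 of the repeated runs described above. The r of their levels to those of Ctcfl was 0.855 and 0.612 over the 9 libraries, and 0.163 and -0.094 after group means were removed. Neither was picked by r, unlike the genes most like Ctcfl. Against all ID4-EGFP+, neither gene passed in either fraction (Stra8 -0.75 in TSPAN8-high, adjusted p = 0.0696, or 0.00773 with the block).

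At imprinted loci with CTCF-bound control regions, H19, an imprinted RNA whose shared control region with Igf2 is bound by CTCF, had 0.49 (limma adjusted p = 0.0927, or 0.0306 with the block) and its neighbour Igf2 had -0.01 (0.977). H19 stood at 3.16, 3.19 and 3.05 FPKM in TSPAN8-high against 1.43, 1.91 and 2.58 in TSPAN8-low, with no overlap, and it passed without TSPAN8-low replicate 3 (adjusted p = 0.0467). The other 2 genes of that list were under the minimum. Of 9 proliferation genes 0 passed (2 had p under 0.05 before adjustment), 8 estimates lay above 0 (8 or 9 under other scalings) and the median was 0.26. Mki67 (0.47, adjusted p = 0.0606), Top2a (0.72, 0.0823) and Mcm3 (0.52, 0.256) passed with the block (0.0154, 0.0124 and 0.0203), and Ccna2 had 0.22 (0.388). Top2a also passed when the fit held only the TSPAN8 fractions (adjusted p = 0.0385) or lacked all ID4-EGFP+ replicate 2 (0.0263), and Mcm3 passed without TSPAN8-high replicate 1 (a difference of 0.82, adjusted p = 0.0493). Their estimates had the same sign as those of Smc3 and Nipbl, and the part of cycling cells in those differences was not tested.

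**Figure D5:**
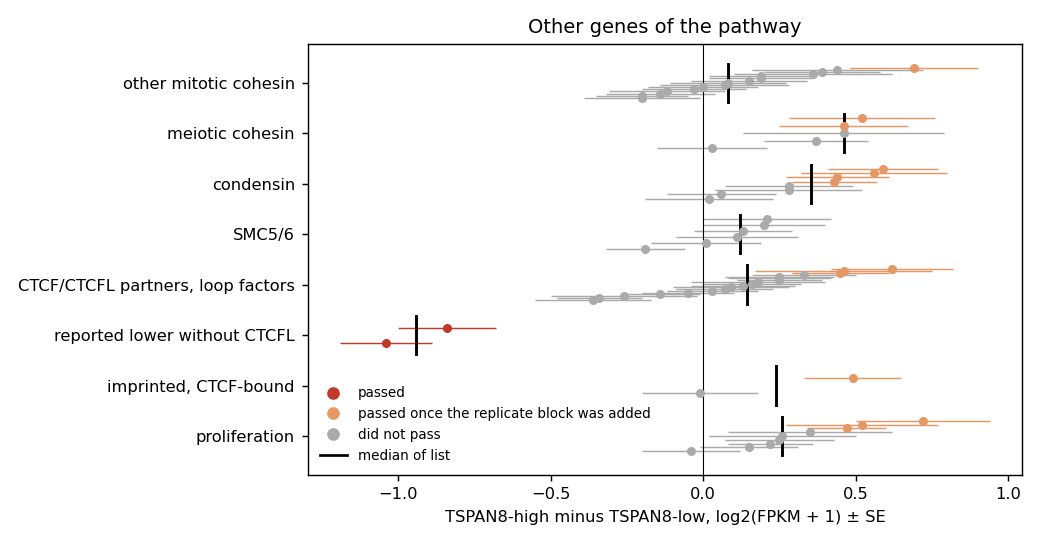
Difference between TSPAN8-high and TSPAN8-low in log2(FPKM + 1) with bars of 1 SE for the tested genes of 8 lists (linear axis), with a black line at each list's median. The list of genes reported lower without CTCFL (Stra8 -1.04, Prss50 -0.84) holds the 2 genes that passed, and the 14 other genes in colour passed once the replicate block was added to that fit.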

How the data were processed

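The authors deposited Cufflinks FPKM values, which were the values analysed here. Beside Cufflinks, TopHat2 2.0.12, Bowtie2 2.2.3.0 and FastQC were named, with genome build mm9, per the submitters' processing notes. For the Cufflinks version, the annotation and the handling of reads that match several places, nothing is given in the sources used here. Normalized values that the authors deposited beside them were treated as signal and used as an alternative. Per the labels' protocols the cDNA kit was SMART-Seq v4, which does not mark strand. Symbols on more than 1 entry (262 symbols, 768 entries) were left out.

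Genes with at least 1 FPKM in at least 3 of 9 libraries were tested on log2(FPKM + 1) in R 4.3.3, with moderated two-sided limma 3.58.1 contrasts whose prior variance followed the mean level (eBayes trend). The fit held the 3 groups of 3 libraries, with Benjamini-Hochberg adjustment over 11142 genes and a threshold of 0.05. Fold changes on that scale understate those of low genes. The script was tested on simulated data. Means ± SD are of FPKM. Per the labels' protocols the libraries of a group are replicate cell preparations. Whether same-numbered libraries of different groups came from 1 preparation, and from which litters, is not stated, and p-values reflect only how far these libraries spread.

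Replicate numbers are shared by the groups. The 9 pairs with the same number deviated together from their group means (r across genes of 0.26 to 0.48), and the 18 other pairs had r of -0.46 to 0.28. Deviations cancel out within a group, so the r of same-numbered pairs and of other pairs depend on each other. Their ranges also overlap. The numbers were taken to pair the samples, a reading that rests on these same data and not on the labels. The fit with the number as a block is given where it changes a call.

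The 7 genes and all lists were chosen with earlier results of these data known. Named genes were the 7, every list gene past the threshold, up to 4 of each list by smallest p between the fractions, the 3 genes reported lower without CTCFL, Tspan8 and Id4, and the 5 genes most correlated with Ctcfl and with Ctcf. Mau2, Smc1b, Yy1, Prmt7, Tyr, Cxcr2 and Klhl41 were added after their values were seen. Repeated runs were found by listing all 25-base runs of GENCODE M21 transcripts, and 99.1% of tested genes matched that annotation by symbol. Markers of Leydig, peritubular myoid and endothelial cells summed to at most 6.90 FPKM in any library, those of red blood cells to at most 0.833 and those of leukocytes to 6.97 to 22.8. Alternatives were pseudocount, filter, scaling, block, groups in the fit and left-out libraries. Python 3.11.15 and matplotlib 3.10.9 made tables and plots.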

Additional observations from a re-analysis of the deposited data

How the results depend on the processing

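Under 20 alternatives the difference between the fractions stayed negative for Ctcfl (-1.63 to -1.22) and positive for Nipbl (0.50 to 0.72), Smc3 (0.39 to 0.66), Rad21 (0.05 to 0.36) and Stag1 (0.06 to 0.42). It was 0.0 to 0.39 for Wapal and -0.07 to 0.13 for Ctcf. Of the 28 list genes that the naming rule gave, 26 did not pass. Of these, 12 passed under no alternative and 7 under the replicate block alone.

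The count of 619 genes called between the fractions was 293 with no filter, 360 with a stricter filter, 2131 with the replicate block and 10 to 633 with libraries left out. The count of 16 for TSPAN8-high against all ID4-EGFP+ was 0 with no filter, 7 with the authors' normalized values, 344 with the replicate block, 27 with only the 2 groups compared and 0 to 111 with libraries left out. The count of 0 for TSPAN8-low against all ID4-EGFP+ was 5 with the replicate block and 0 to 1 with libraries left out. The 2 list genes called became 1 with the stricter filter, which drops Prss50, 16 with the replicate block, 3 with only the 2 groups compared and 0 to 7 with libraries left out. Libraries left out turned the direction of Nsmce1 (-0.08 to 0.28), Igf2 (-0.18 to 0.21), Mau2 (-0.08 to 0.22) and Smc1b (-0.12 to 0.20, from 0.03). A common median also turned Mau2 (-0.01) and Smc1b (-0.07), and Mau2 was at 0.0 with the authors' normalized values. Outside the rule, Mau2, Smc1b and Yy1 passed under no alternative and Prmt7 under the replicate block alone. Tspan8 and Id4 did not pass once replicate 2 was left out of every group (adjusted p of 0.0555 and 0.101). The cause of these shifts was not tested.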
